A study of Mus musculus with 2 samples.

Results

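The miR-290 to miR-295 cluster is a group of mouse microRNA (miRNA) genes transcribed together, and 8 of its mature products were read on arrays in 2 mouse epidermal keratinocyte lines. They were taken from the deposited table by their miRBase mature-sequence accessions and are 8 of its 739 rows. The products of the 5′ side of a hairpin are miR-290a-5p (MIMAT0000366), miR-291a-5p (MIMAT0000367) and miR-292a-5p (MIMAT0000369). Those of the 3′ side are miR-291a-3p (MIMAT0000368), miR-292a-3p (MIMAT0000370), miR-293-3p (MIMAT0000371), miR-294-3p (MIMAT0000372) and miR-295-3p (MIMAT0000373). The table itself pairs no accession with a name. Pam212 is a spontaneously transformed line labelled non-metastatic, and LY-1 is its metastatic derivative. Both are of strain Balb/c, were grown untreated to confluency in DMEM with fetal calf serum, and contributed 1 plate and 1 array each. There was therefore no replicate of either line, no spread to set a difference against and no test. The precision of an intensity is unknown, and every difference below is between 2 arrays and not shown to be one between the lines.

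A miRNA gene gives a hairpin transcript whose 5′ and 3′ sides can each yield a mature strand, marked 5p or 3p at the end of its name. The mature strand guides an Argonaute protein to messenger RNAs, mainly through bases 2 to 8, called the seed, and lowers their output. The cluster is best known from mouse embryonic stem cells and the early embryo, where it is among the most abundant miRNAs and several of its 3′ products promote the rapid cell cycle of pluripotent cells. It falls silent on differentiation and is not a characteristic miRNA of skin keratinocytes.

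RefSeq (build GRCm38.p6) gave a mature sequence for 7 of the 8 products, all on the plus strand of chromosome 7. They are shown because the products fall into groups by seed, and the seed groups are set beside detection further on. No sequence was found for miR-292a-3p, so it was placed in none of the seed groups. In each sequence, written 5′ to 3′, the capitals mark the seed, bases 2 to 8. The first 3 lines are products of the 5′ side of the hairpin.

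miR-290a-5p, chr7:3218639-3218660: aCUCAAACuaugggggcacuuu
miR-292a-5p, chr7:3219200-3219221: aCUCAAACugggggcucuuuug
miR-291a-5p, chr7:3218932-3218953: cAUCAAAGuggaggcccucucu
miR-291a-3p, chr7:3218968-3218989: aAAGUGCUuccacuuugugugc
miR-294-3p, chr7:3220691-3220712: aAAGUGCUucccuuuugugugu
miR-295-3p, chr7:3220815-3220837: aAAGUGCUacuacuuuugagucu
miR-293-3p, chr7:3220390-3220411: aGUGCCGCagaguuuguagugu

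miR-291a-3p, miR-294-3p and miR-295-3p share the seed AAGUGCU. Among 1679 mouse mature sequences in the RefSeq table, 5 (0.298%) carry it, and the other two are miR-302b-3p and miR-302d-3p, products of another cluster known from pluripotent cells. miR-290a-5p and miR-292a-5p share the seed CUCAAAC, which 3 of the 1679 carry, the remaining one being miR-293-5p of the same cluster. miR-291a-5p has the seed AUCAAAG, found otherwise in miR-291b-5p alone. The seed GUGCCGC of miR-293-3p occurs in no other sequence of the table. These RefSeq sequences are not complete, since the one of miR-292a-3p is missing, so the counts may leave out other carriers of a seed.

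miR-291a-3p and miR-294-3p were the closest pair among these, with 19 of 22 bases alike (86.4%) when set end to end without gaps. miR-290a-5p and miR-292a-5p had 15 of 22 bases alike (68.2%). miR-293-3p had 9 of 20 aligned bases in common with miR-291a-3p at their best ungapped placement. Probe sequences were not used here, so how well a probe of the array tells these products apart was not tested.

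From the start of hairpin Mir290a to the end of hairpin Mir295 the cluster covers 2216 bases, chr7:3218626-3220841. Mir290b and Mir292b are annotated on the minus strand over Mir290a and Mir292. The interval also overlaps D7Ertd143e, annotated as a long non-coding RNA, and the protein-coding gene Nlrp12.

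**Figure D1:**
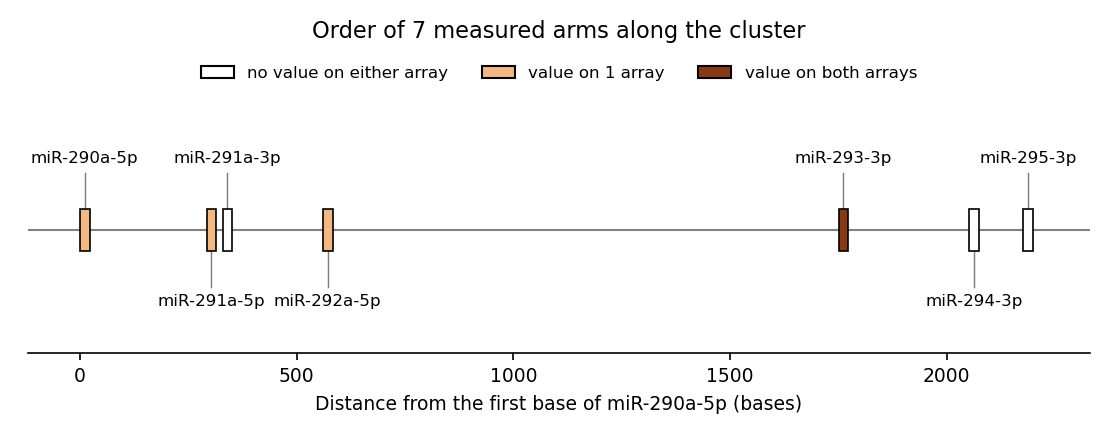
Position of the 7 cluster products with a RefSeq sequence, as distance in bases from the first base of miR-290a-5p. Box colour gives the number of arrays with a value. miR-293-3p, at 1751 bases, is the one drawn with a value on both, while miR-291a-3p, miR-294-3p and miR-295-3p have none on either. miR-292a-3p, also with a value on both arrays, has no sequence here and is not drawn.

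The 8 products gave 7 readings over the 2 arrays, from 1.04 to 4.64 intensity units. A value was present for 3 of the 8 products in Pam212, where 62.2% of all 739 rows had one, and for 4 of the 8 in LY-1, where 59.1% of all rows had one. Both arrays held a value for 2 products (47.9% of all rows). Pam212 alone held one for 1 product (14.3%), LY-1 alone for 2 products (11.2%), and 3 products had none at all (26.5%). With 8 products, 1 more or fewer moves such a share by 12.5 percentage points, and nothing is read from its distance to that of all rows. The authors' rule for null cells is not stated in the labels or the table, and a null cell is therefore reported as no value and not as absence of the miRNA.

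The rows registered early in miRBase, as all 8 products were, had a value more often than the table as a whole. Of the 203 rows numbered under 1000, 72.9% had a value in Pam212 and 70.0% in LY-1, and 18.7% had none on either array. These 203 rows include the 8 products.

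The 3 products of the 3′ side listed above with the seed AAGUGCU had no value. miR-291a-3p, miR-294-3p and miR-295-3p, the products most closely tied to the cell cycle of embryonic stem cells, were null in Pam212 and null in LY-1. These are all of the 3 products without a value on either array. miR-302b-3p and miR-302d-3p, which share their seed, were not analysed here, because the rows of the table carry no names. miR-292a-3p, also of the 3′ side, had a value on both arrays, but its seed was not compared because its sequence was missing.

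miR-293-3p had the highest reading among the measured products on both arrays. It read 2.997 intensity units in Pam212 and 4.64 in LY-1. In Pam212 it ranked 189 of 460 measured probes, above 58.9% of them, and in LY-1 it ranked 148 of 437, above 66.1%. Both readings lay over 2.26, the median of all measured values of both arrays pooled, which served as a brightness floor. They lay under the pooled 75th percentile of 11.0, so the brightest reading among the 8 products was in the middle of the range of measured probes. Brightness depends on the probe as well as on the amount of RNA, so the ranks do not order the miRNAs by abundance.

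The log2 difference of miR-293-3p, LY-1 minus Pam212, was 0.63, a ratio of 1.55. Probes of like brightness often differed more. Of 131 probes whose brighter value lay from the floor to the pooled 75th percentile, miR-293-3p included, 28 (21.4%) were higher in LY-1 by as much or more. The SD of the log2 difference over these 131 probes was 0.89 and their median was -0.14. That SD is taken over different miRNAs and holds differences between the lines as well as error, so it is no replicate error, and the difference of miR-293-3p was smaller than it.

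The hairpins of miR-293-3p and miR-294-3p show the side of the stem that each probe reads, and are given because one product was measured on both arrays and the other on neither. The capitals mark the measured 3′ product.

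Mir293, chr7:3220343-3220422: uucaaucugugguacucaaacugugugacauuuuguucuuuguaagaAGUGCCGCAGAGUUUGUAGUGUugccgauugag
Mir294, chr7:3220641-3220724: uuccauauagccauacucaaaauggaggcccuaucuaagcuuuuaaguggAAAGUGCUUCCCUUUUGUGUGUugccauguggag

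The letters AAGUGC, bases 2 to 7 of miR-294-3p, occur 1 time in each hairpin as written. In Mir294 they start at base 52 of the hairpin, inside the product, which starts at base 51. In Mir293 they start at base 47, 1 base before the annotated product, which runs from base 48 to base 69. As annotated, miR-293-3p therefore begins inside these letters, and its bases 2 to 8 differ from those of the other 3′ products shown. This describes the annotation, since the array does not read where a product starts.

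miR-292a-3p was the other product with 2 readings. It read 1.78 in Pam212 and 1.05 in LY-1, and so ran the opposite way to miR-293-3p. In Pam212 it was brighter than 40.9% of measured probes, and in LY-1 brighter than 7.55%, where the lowest value on the array was 0.948. The log2 difference was -0.77, or 1.70-fold higher in Pam212. Both readings were under the floor of 2.26, so miR-292a-3p entered no count of differences. Of 102 probes with both readings under the floor, 9 (8.82%) were lower in LY-1 by as much or more, miR-292a-3p included. The SD of the log2 difference over these 102 was 0.44, again over different miRNAs and not replicates.

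**Figure D2:**
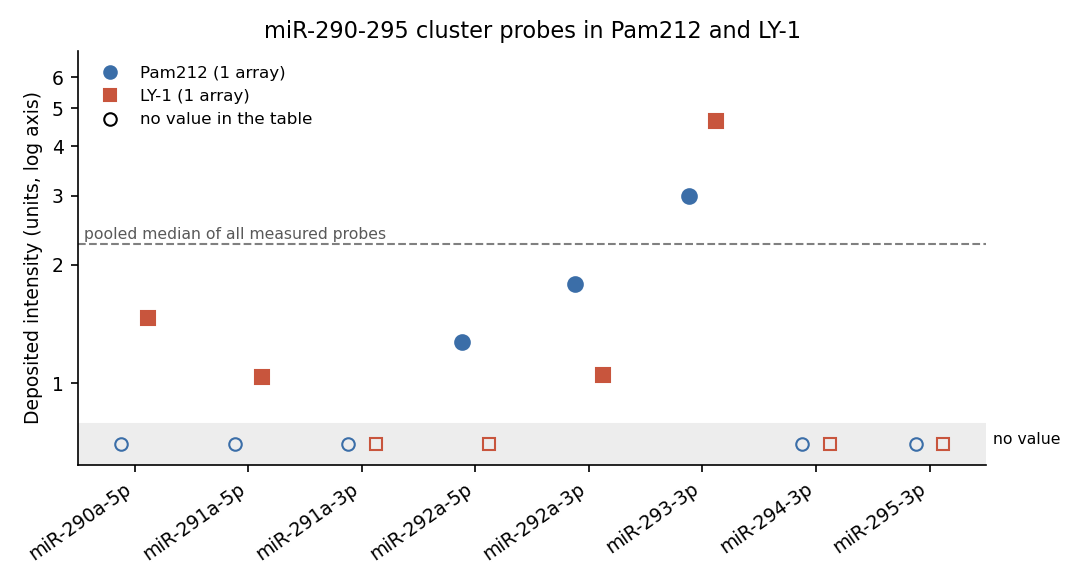
Deposited intensity of the 8 cluster products on a log axis, with Pam212 as circles and LY-1 as squares, 1 array each. Open symbols in the grey band mark cells with no value and have no height, and the dashed line is the pooled median of 2.26. miR-293-3p alone lies above that line, at 2.997 and 4.64.

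The 3 products of the 5′ side among the 8 were each read on 1 array and were dim there. miR-290a-5p read 1.47 in LY-1 and had no value in Pam212. miR-291a-5p read 1.04 in LY-1, brighter than 6.87% of the probes measured on that array, and had no value in Pam212. miR-292a-5p read 1.27 in Pam212, brighter than 19.8% of the probes measured there, and was null in LY-1. None of the 3 has a measured fold. miR-290a-5p and miR-292a-5p, which share a seed, had their values on different arrays.

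A missing partner value was common among probes this dim. Of 239 probes read below the floor in Pam212, 102 (42.7%) had no value in LY-1, and of 209 read below the floor in LY-1, 76 (36.4%) had none in Pam212. Among probes from the floor to the pooled 75th percentile, the shares were 2.63% of 114 and 5.45% of 110. The readings of all 3 products of the 5′ side fell in the dim class, where a reading on 1 array is common.

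By arm, the 3 products of the 5′ side among the 8 had a value on exactly 1 array each. The 5 products of the 3′ side had a value on both arrays (2 of 5) or on neither (3 of 5). Of all 739 rows, 14.3% had a value in Pam212 alone and 11.2% in LY-1 alone. A further 47.9% had one on both arrays and 26.5% on neither. With 3 and 5 products, and with others of the cluster such as miR-293-5p not analysed, nothing is read from this split by arm. For miR-291a, both sides of whose hairpin were on the array, the 5′ product had a value in LY-1 (1.04) and the 3′ product on neither array. For miR-292a, the 5′ product had a value in Pam212 (1.27) and the 3′ product on both arrays (1.78 and 1.05). The 2 probes of a hairpin are different probes, so these readings do not give the ratio of its strands.

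At or above the floor there was 1 of 8 products in Pam212, against 29.9% of all rows, and 1 of 8 in LY-1, against 30.9%. In both lines that product was miR-293-3p. The remaining 7 of 8 did not reach the floor on either array, as was so for 64.4% of all 739 rows. Of the 203 rows numbered under 1000, 47.3% did not reach it on either array. In Pam212 92 of the 203 reached it, and in LY-1 98. The measured values of these 203 rows had medians of 5.14 in Pam212 and 5.69 in LY-1. The 3 values in Pam212 had a median of 1.78, and the 460 values of that array had a median of 2.16. The 4 values in LY-1 had a median of 1.26, and the 437 of that array had a median of 2.44. The medians of the 8 products cover those with a value and say nothing of those without one.

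Neither of the products measured on both arrays reached a 2-fold difference. For comparison, 252 probes had both values and a brighter value at or above the floor. LY-1 exceeded Pam212 by 2-fold or more in 12.7% of them, and Pam212 exceeded LY-1 by as much in 6.35%. Of the 8 products, 1 was among the 252, miR-293-3p, so the 0 calls in each direction rest on a single probe. Other products of the cluster, such as miR-293-5p, were not analysed here, because rows carry no names. The counts therefore do not speak for the whole cluster. At a 1.5-fold size threshold miR-293-3p was counted as higher in LY-1, as were 25% of the 252 probes, and 17.1% were at least 1.5-fold lower. These thresholds are sizes and not tests.

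The 2 probes whose readings were nearest to those of miR-293-3p, by Euclidean distance of log2 intensity over the 2 arrays, were MIMAT0004539 and MIMAT0004635. MIMAT0004539 read 2.96 in Pam212 and 4.76 in LY-1, at a distance of 0.04. MIMAT0004635 read 3.21 and 4.53, at a distance of 0.11. Neither the table nor the references used here give these accessions a name.

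**Figure D3:**
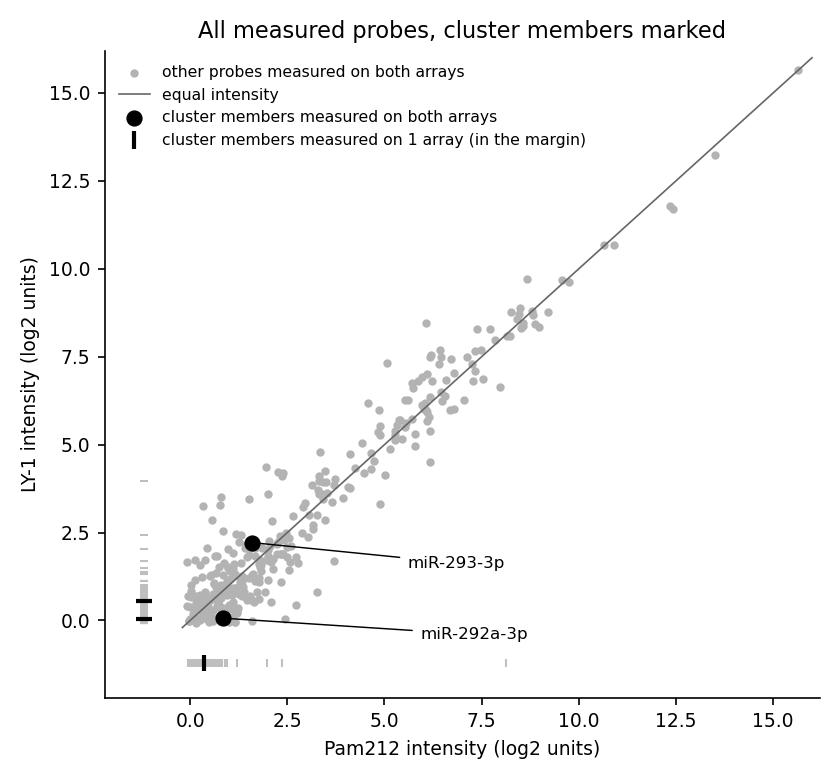
Log2 intensity in LY-1 against log2 intensity in Pam212 for every measured probe, with the line of equal intensity. Black points are those of the 8 products measured on both arrays. Black bars are those measured on 1 array, set in the margin of the array without a value among grey bars for other such probes. The black marks reach no higher than the 4.64 units of miR-293-3p in LY-1, and miR-293-3p (log2 difference 0.63) and miR-292a-3p (-0.77) fall on opposite sides of the line.

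The arrays as a whole had similar scale. Over the 354 probes with both values the medians were 3.21 for Pam212 and 3.31 for LY-1, and no further scaling was applied. The series text remarks on signal over noise and on duplicate spots for miR-221 and miR-222 only, so nothing in the labels speaks to the quality of the cluster's probes. The keratinocyte identity of the lines and the presence of other cell types could not be checked against marker miRNAs, because the rows of the table carry no names.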

How the data were processed

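Per the labels' protocols, total RNA from 1 plate of each line was isolated on miRNA-retaining columns and labelled with Hy5 (miRCURY LNA kit). The deposited table gives 1 intensity per row and array on a linear scale, with null cells. The scanner, background correction, combination of spots, scaling and null rule are not given in the sources used here.

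Differences are log2 LY-1 minus log2 Pam212 of the deposited intensities, with no pseudocount. The floor is the pooled median, 2.26, and the size threshold 2-fold. With 1 array per line no test was run. Calculations used Python 3.11.15, numpy 2.4.6, pandas 2.3.3, statsmodels 0.14.6 and matplotlib 3.10.9. The difference scripts were tested on simulated data without null cells, which checks the calculation and not the precision of these arrays. Alternatives changed scaling, pseudocount (1.02), floor and threshold.

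All 8 products were described, and likeness was restricted to the 2 nearest probes of a product past the floor. Members and lists were chosen with earlier results of these data known. Other products of the cluster, the related miR-17 family, other miRNAs sharing a seed and the cell type marker lists were not analysed here, since rows carry no names. Sequences come from RefSeq (GRCm38.p6).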

Additional observations from a re-analysis of the deposited data

How the results depend on the processing

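Both measured differences kept their direction under every scaling and under the pseudocount. The difference of miR-292a-3p was -0.65 after quantile normalization and -0.44 with the pseudocount, against -0.77, and that of miR-293-3p was 0.50 with the pseudocount, against 0.63. Other scalings moved either by at most 0.1 on the log2 scale. No product reached 2-fold in either direction under any scaling, floor or pseudocount tried. With the main floor these counts cover miR-293-3p alone, and without a floor also miR-292a-3p. With the 75th percentile floor they cover no product, so that count could only be 0. The 0 at 3-fold follows from that at 2-fold. As deposited, 1 product, miR-293-3p, was higher at 1.5-fold, a threshold not combined with other scalings or the pseudocount. Under the floor, miR-292a-3p, 1.70-fold higher in Pam212, was not counted. A floor at the pooled 25th percentile (1.35) left 2 products in Pam212 and 2 in LY-1, and one at the 75th percentile (11.0) left 0 in each, against 1 and 1. The median percentile of the measured products was 40.9 for Pam212 and 18.6 for LY-1, and 25.1 and 12.7 when ranked among probes measured on both arrays, which are brighter. No replicate could be left out and no paired analysis was possible because each line has 1 array. Signal over background is unknown for every product, since the table holds no background value, and 3 of the 8 have no value at all.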
